A study of Mus musculus with 9 samples.

Results

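The Ear genes examined here are Ear1, Ear2, Ear6 and Ear10, 4 of the 54281 genes in the table, chosen as the rows whose Ensembl identifiers carry those symbols in GENCODE M21. All 4 passed the filter on low counts and were tested. RNA was sequenced from lung macrophages, phagocytes washed out of the airspaces by lavage while the lung was massaged, of 9 female wild-type mice aged 12 weeks from Jackson Labs. There were 3 controls exposed to air for 3 h, and 2 groups of 3 mice that breathed 0.8 ppm ozone for 3 h and were sampled 24 h or 72 h later. No sampling time is recorded here for the air controls, so they cannot be matched in time to either ozone group. Both ozone groups are compared with the same 3 air libraries, so those 2 comparisons share their controls.

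Ear stands for eosinophil-associated ribonuclease. The Ear proteins belong to the RNase A superfamily of small secreted ribonucleases, and in rodents the genes were duplicated into a cluster of closely related copies, whose human counterparts are eosinophil-derived neurotoxin and eosinophil cationic protein. Some Ear proteins are stored in eosinophil granules, and Ear2 transcripts are also known as abundant in mouse alveolar macrophages. Ozone is an inhaled oxidant that damages airway and alveolar lining cells.

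Because the copies resemble each other, how far their reads can be told apart comes first. All 4 lie on chromosome 14 of GRCm38, each with a single coding exon after an upstream exon that holds only untranslated sequence. Ear1 (ENSMUSG00000072601.4) spans chr14:43818765-43875517 on the minus strand, and its compact 2-exon transcript of 713 bases covers chr14:43818765-43819639. Ear10 (ENSMUSG00000090166.2) lies at chr14:43922720-43923559 on the minus strand, and Ear2 (ENSMUSG00000072596.4) at chr14:44102654-44103534 on the plus strand. Ear6 (ENSMUSG00000062148.6) stands apart at chr14:51853699-51854643 on the plus strand, and 1 of its 2 annotated transcripts retains the intron. Ear1 overlaps the pseudogenes Ear-ps9 and Ear-ps12 on its own strand and Ang-ps2 and the lincRNA AC154806.1 on the other, and Ear2 overlaps the lincRNA Gm49101 on the other strand. Gm49101 had 6 to 28 counts and AC154806.1 at most 3.

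The first 150 coding bases show how close the copies are. They were read from the GENCODE M21 transcripts on GRCm38, 5′ to 3′ in the sense of each gene, and capitals mark bases that differ from Ear2. The positions are chr14:43819260-43819409 on the minus strand for Ear1, chr14:44102887-44103036 on the plus strand for Ear2, chr14:51853998-51854147 on the plus strand for Ear6 and chr14:43923219-43923368 on the minus strand for Ear10.
Ear1: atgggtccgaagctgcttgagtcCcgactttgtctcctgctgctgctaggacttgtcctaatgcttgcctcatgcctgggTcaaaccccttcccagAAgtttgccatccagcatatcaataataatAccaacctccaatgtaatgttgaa
Ear2: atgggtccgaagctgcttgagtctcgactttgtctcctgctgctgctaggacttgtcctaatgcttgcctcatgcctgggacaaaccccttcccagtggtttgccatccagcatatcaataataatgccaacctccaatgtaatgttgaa
Ear6: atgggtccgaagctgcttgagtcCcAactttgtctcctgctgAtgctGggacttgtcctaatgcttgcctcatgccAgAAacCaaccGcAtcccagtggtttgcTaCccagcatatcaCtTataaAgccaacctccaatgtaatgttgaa
Ear10: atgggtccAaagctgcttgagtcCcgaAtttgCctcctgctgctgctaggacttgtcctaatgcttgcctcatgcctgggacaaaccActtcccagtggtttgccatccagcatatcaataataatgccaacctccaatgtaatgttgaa
Ear1 and Ear10 each differ from Ear2 at 5 of these 150 bases, and Ear6 at 15. Over the whole coding sequence, identity was 97.0% between Ear2 and Ear10, 95.1% between Ear1 and Ear2 and 94.5% between Ear1 and Ear10. The longest stretch without a difference was 185 bases between Ear2 and Ear10, 100 between Ear1 and Ear10 and 96 between Ear1 and Ear2. Between Ear6 and each of the others it was 39 bases, and Ear6 was 87.4% to 87.7% identical to them.

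Every run of 31 consecutive bases in the annotated transcripts of each gene was then looked up in all GENCODE M21 transcripts. Of the 683 such words of Ear1, 180 (26.4%) occurred in no other gene. The share was 39.5% for Ear2 (272 of 689), 50.5% for Ear10 (327 of 648) and 91.5% for Ear6 (863 of 943). Ear1 and Ear2 had 277 words in common, 40.6% of those of Ear1 and 40.2% of those of Ear2, and Ear1 had 332 words in common with Ear-ps9. Ear6 shared at most 37 words with any other member. These are shares of words and not of reads, as read length was not taken into account. Counts of Ear1, Ear2 and Ear10 rest on how the counting software divided reads that fit several copies, and their levels are uncertain to that extent. Of the 9 deposited values of each gene, 2 of Ear1, 2 of Ear2, 2 of Ear10 and 9 of Ear6 lay within 0.1 of a whole number, as did 71.3% of the values of tested genes. Ear-ps9 had 2.71, 416 and 2.64 counts in the air mice, 2.67, 85.1 and 171 counts in the 24 h mice, and 166, 9.998 and 263 counts in the 72 h mice, with high and low libraries in every group. At its highest it had 11.1 counts per 1000 counts of Ear1. The library kit keeps the strand, per the labels' protocols, but no source used here says whether counting used it.

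**Figure D1:**
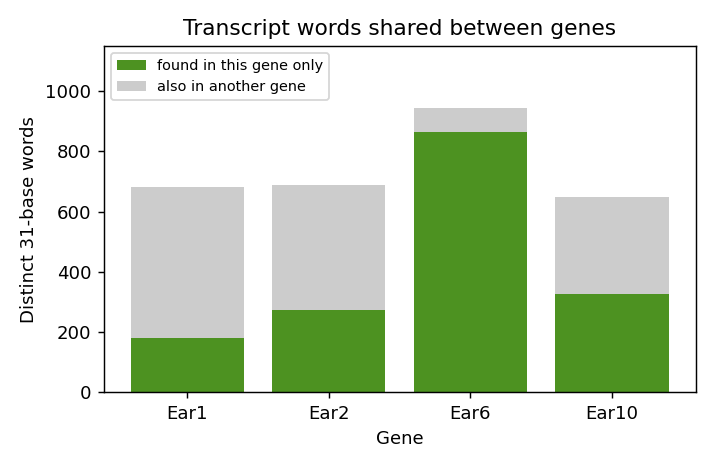
Bars give, for each Ear gene on the x axis, the number of distinct 31-base words in its annotated transcripts (y axis); the green part occurs in no other GENCODE M21 gene and the grey part also in at least 1 other gene. The green part is smallest in Ear1 (180 of 683) and largest in Ear6 (863 of 943).

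The promoters, from the RefSeq table on GRCm38.p6, are shown as a description. Whether their sequence bears on the levels was not tested. Each run other than that of Ear6 ends at the base before the RefSeq start of the gene, and capitals again mark bases that differ from Ear2, with ends that overhang the alignment left in lower case. Ear1 is chr14:43819640-43819889 on the minus strand, Ear2 chr14:44102404-44102653 on the plus strand and Ear10 chr14:43923597-43923846 on the minus strand. For Ear6, chr14:51853518-51853698 on the plus strand is printed, because the last 69 of the 250 bases lie in an exon of its longer GENCODE transcript.
Ear1: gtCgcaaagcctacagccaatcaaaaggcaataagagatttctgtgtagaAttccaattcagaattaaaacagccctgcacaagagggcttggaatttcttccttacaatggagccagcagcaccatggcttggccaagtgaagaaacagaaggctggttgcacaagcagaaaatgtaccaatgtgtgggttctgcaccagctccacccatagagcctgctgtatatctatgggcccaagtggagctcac
Ear2: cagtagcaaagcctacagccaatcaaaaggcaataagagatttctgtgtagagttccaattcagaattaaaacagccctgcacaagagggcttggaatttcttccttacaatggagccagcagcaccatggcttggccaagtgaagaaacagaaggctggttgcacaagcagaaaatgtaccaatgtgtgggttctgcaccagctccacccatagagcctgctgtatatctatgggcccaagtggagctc
Ear6: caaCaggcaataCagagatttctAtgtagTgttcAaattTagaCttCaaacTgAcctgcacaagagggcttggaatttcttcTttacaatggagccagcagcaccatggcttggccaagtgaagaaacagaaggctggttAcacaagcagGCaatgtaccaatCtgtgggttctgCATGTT
Ear10: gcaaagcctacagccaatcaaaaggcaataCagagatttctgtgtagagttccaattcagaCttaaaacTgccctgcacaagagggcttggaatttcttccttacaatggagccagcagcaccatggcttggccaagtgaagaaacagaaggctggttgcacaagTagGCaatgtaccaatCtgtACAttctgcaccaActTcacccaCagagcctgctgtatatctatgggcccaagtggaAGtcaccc
The promoters of Ear1 and Ear2 were identical at 246 of 248 aligned bases (99.2%). That of Ear10 was 93.9% identical to Ear2. That of Ear6 was 85.4% identical to Ear2, at 211 of 247 aligned bases, with the 69 bases not printed included in the alignment. The letters CCAAT, searched on both strands, occurred 3 times in each of Ear1, Ear2 and Ear10 and once in Ear6, all on the gene's strand; 33.8% of the 32851 promoters of this length in the table hold them. Neither TATAAA, found in 12.4% of promoters, nor GAGGAA (23.3%, a core of sites bound by the myeloid factor PU.1), nor GGGCGG (32.7%) was present in any of the 4 windows.

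The libraries held 47095543 to 60248305 estimated counts. Of 20 resident alveolar macrophage markers all 20 were tested, with summed levels of 40260 to 42690 CPM (the usual unit of counts scaled to library size) in air, 26930 to 37530 at 24 h and 31490 to 37620 at 72 h. The second 24 h library and the first 72 h library stood apart and carried markers of other cells. The 8 B cell markers summed to 1560 CPM in that 24 h library and 984 CPM in that 72 h library, against 157.5 to 200 CPM in the other 7. The B cell marker Cd22 supplied nearly all of the sum in those 7 (155.3 to 196.3 CPM) and had 180.7 and 216 CPM in these 2 libraries. The 8 serous cavity macrophage markers summed to 600.0 and 820.5 CPM in the same libraries, against 21.6 to 59.4 CPM in the others. The resident markers had their lowest sums, 26930 and 31490 CPM, in these 2 libraries. The 7 erythroid markers summed to 855, 2909 and 143 CPM in the 24 h mice, against 33.5, 83.5 and 23.8 CPM in the air mice, so all 3 libraries at 24 h lay above air. At 72 h they summed to 2510, 75.7 and 12.2 CPM. The part of these other cells in the results was not tested, and leaving out the 2 libraries does not remove the erythroid difference at 24 h. In bulk RNA, fewer cells of a type and less RNA per cell cannot be told apart.

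Ear2 was the most abundant member at every time. Scaled to the length of the spliced transcript, it averaged 2707 ± 103 CPM per kb in air, 2118 ± 133 at 24 h and 2070 ± 286 at 72 h (SD, n = 3 mice each). Ear1 followed with 988 ± 123, 677 ± 36.5 and 609 ± 102 CPM per kb in air, at 24 h and at 72 h. Ear6 and Ear10 were far lower. Ear6 averaged 8.12 ± 1.71, 5.89 ± 1.21 and 11.6 ± 1.89 CPM per kb in that order, and Ear10 1.10 ± 0.0717, 0.659 ± 0.0470 and 0.833 ± 0.349. The order Ear2, Ear1, Ear6, Ear10 was the same in all 3 groups, with no overlap between neighbours. Per length, Ear2 exceeded Ear1 2.74-fold in air, 3.13-fold at 24 h and 3.4-fold at 72 h, and Ear1 exceeded Ear6 122-fold, 115-fold and 52.4-fold.

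Ear2 encodes a secreted ribonuclease of the family. Its level was 1912, 2031 and 1896 CPM in the air mice, 1603, 1417 and 1548 CPM in the 24 h mice, and 1251, 1599 and 1614 CPM in the 72 h mice. Every ozone library lay below every air library, and the 2 ozone groups overlapped. The lowest value in each ozone group was in the library that carried markers of other cells. The log2 fold change was -0.35 ± 0.11 (SE) at 24 h against air (adjusted p = 0.227) and -0.39 ± 0.11 at 72 h against air (adjusted p = 0.0743) by edgeR's quasi-likelihood test with Benjamini-Hochberg adjustment over the 15713 genes tested. Neither passed the threshold of 0.05 below which a gene is referred to as called. DESeq2 gave -0.36 (adjusted p = 0.041) at 24 h and -0.38 (adjusted p = 0.0139) at 72 h, both called. Between 72 h and 24 h the difference was -0.03 ± 0.11 (adjusted p = 0.873, edgeR). Without the 2 libraries that carried other markers, edgeR gave -0.30 (adjusted p = 0.110) at 24 h and -0.25 (adjusted p = 0.0503) at 72 h against air.

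Ear1, next to Ear2 in level, had 717, 785 and 611 CPM in the air mice, 500.1, 453 and 495 CPM in the 24 h mice, and 350.5, 470.1 and 481 CPM in the 72 h mice. All 6 ozone libraries lay below all 3 air libraries, and the lowest value in each ozone group was in the library that carried markers of other cells. Ear1 fell by 0.70 on the log2 scale at 72 h against air (SE 0.14, adjusted p = 0.0319, edgeR), a level 0.616 times that in air. At 24 h the change was -0.55 ± 0.14 (adjusted p = 0.163), and 72 h against 24 h it was -0.15 ± 0.14 (adjusted p = 0.489). Without the 2 libraries that carried other markers, the 72 h change was -0.54 (adjusted p = 0.0209) and the 24 h change -0.50 (adjusted p = 0.0934).

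The 72 h call of Ear1 was lost without any 1 of 8 libraries. With single libraries left out in turn, the log2 fold change lay between -0.79 and -0.57. The adjusted p from edgeR was 0.0784, 0.122 and 0.116 without air mouse 1, 2 or 3. It was 0.0699 and 0.0709 without 24 h mouse 1 or 3, and 0.0807, 0.127 and 0.0714 without 72 h mouse 1, 2 or 3. Only without 24 h mouse 2 did the call hold (adjusted p = 0.0241). DESeq2 gave -0.69 (adjusted p = 0.000133) at 72 h, and -0.55 (adjusted p = 0.00746), also a call, at 24 h.

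**Figure D2:**
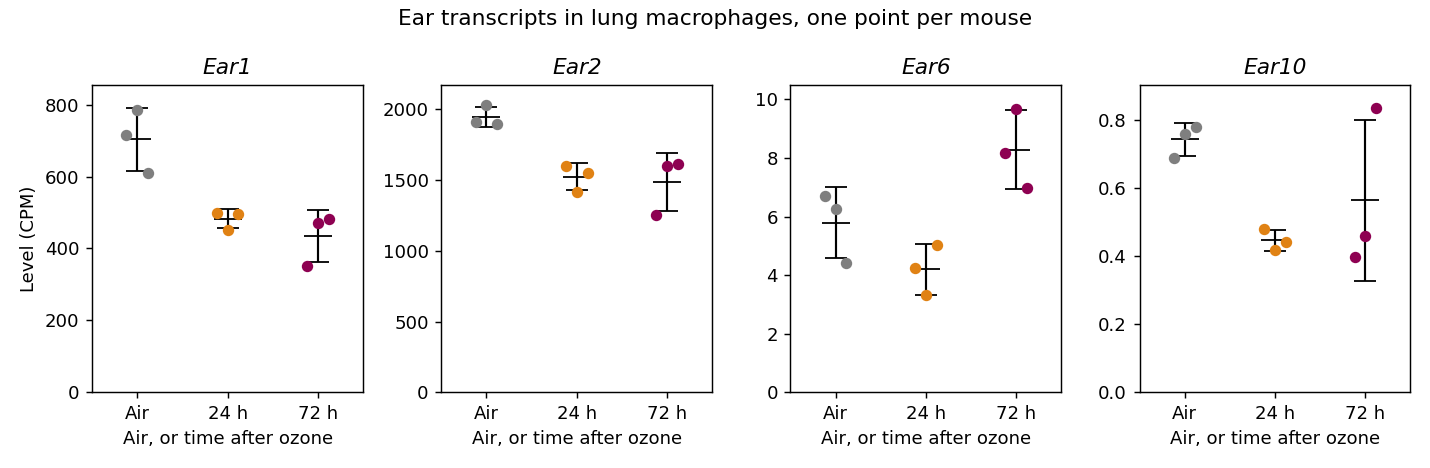
Each panel shows 1 Ear gene, with the level in CPM on the y axis from 0 and the air, 24 h and 72 h groups on the x axis; points are mice, and the black line and bars are the mean ± SD (n = 3). The ozone points of Ear1 and Ear2 lie below all air points, while the 72 h points of Ear6 (6.99 to 9.68 CPM) lie above the air and 24 h points.

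Ear6 averaged lowest at 24 h and highest at 72 h. Its level was 6.70, 6.28 and 4.41 CPM in the air mice, 4.24, 3.32 and 5.04 CPM in the 24 h mice, and 8.16, 9.68 and 6.99 CPM in the 72 h mice, from 159 to 526 estimated counts per library. All 72 h mice lay above all 24 h and all air mice, and the 24 h and air mice overlapped. Ear6 was higher at 72 h than at 24 h by 0.98 ± 0.21 on the log2 scale, 1.97-fold (adjusted p = 0.0180, edgeR). Against air the change was 0.52 ± 0.21 at 72 h (adjusted p = 0.173) and -0.46 ± 0.21 at 24 h (adjusted p = 0.347). Without the 2 libraries that carried other markers, Ear6 was higher at 72 h than at 24 h by 0.87 (adjusted p = 0.0427). The call was lost without 24 h mouse 1 (1.00, adjusted p = 0.0689) and without 72 h mouse 2 (0.84, adjusted p = 0.0922), and it held without each of the other 7 libraries.

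Ear10, the sequence closest to Ear2, was near the lower limit of what was tested. It had 34.5, 44.6 and 46.8 estimated counts in the air mice, 23.9, 19.6 and 20.5 in the 24 h mice, and 20.02, 25.2 and 40.8 at 72 h. In CPM, the 24 h mice (0.4805, 0.417 and 0.443) all lay below the air mice (0.689, 0.761 and 0.782), and the 72 h mice (0.398, 0.460 and 0.836) spread over both. The log2 fold change was -0.73 ± 0.30 at 24 h against air (adjusted p = 0.320), -0.40 ± 0.30 at 72 h against air (adjusted p = 0.416) and 0.33 ± 0.30 at 72 h against 24 h (adjusted p = 0.494). The 72 h value against air was -0.80 without 72 h mouse 3, -0.20 without 72 h mouse 1 and -0.18 without the 2 libraries that carried other markers. Its counts were 2.79 to 5.15 per 10000 counts of Ear2. Whether reads of Ear2 were counted to Ear10 was not tested.

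Read against all genes, 1 of 4 members was called lower at 72 h against air, where 3.77% of the 15713 genes were called lower. The balance of those calls turned with the setting. There were 268 higher and 592 lower calls, but 192 higher and 107 lower with upper quartile scaling, and 703 higher and 419 lower without the 2 libraries that carried other markers. Likewise 1 of 4 was called higher at 72 h against 24 h, where 5.39% of genes were. At 24 h against air no member was called, and 0.00636% of genes were called lower. Of the 4 members, 3 (Ear1, Ear2 and Ear10) had an unadjusted p under 0.05 by edgeR, lower in each, as did 6.05% of genes. Reads that fit several copies were divided among these 3, so counts and medians over the members do not rest on separate observations. DESeq2 called 2 members lower at 24 h, against 1.48% of the 12339 genes to which it gave an adjusted p, and the same 2 at 72 h, against 7.42% of 16961. Groups did not overlap for 3 members in the lower direction at 24 h against air (9.06% of genes) and for 2 at 72 h against air (22.1% of genes). They did not overlap for Ear6 in the higher direction at 72 h against air (17.5% of genes) and at 72 h against 24 h (15.0% of genes). The median log2 fold change of the 4 members was -0.50 at 24 h against air, -0.39 at 72 h against air and 0.15 at 72 h against 24 h, against 0.01, -0.01 and -0.03 over all genes tested. The joint test of the 3 groups called Ear1 (adjusted p = 0.0249) and Ear6 (adjusted p = 0.0410), against 13.2% of genes. Ear2 (0.0675) and Ear10 (0.234) had adjusted p-values from that test above the threshold. Without the 2 libraries that carried other markers, it called Ear1 (adjusted p = 0.0193) and Ear2 (adjusted p = 0.0332), and Ear6 had an adjusted p of 0.0770. With single libraries left out, the joint call of Ear1 held without air mouse 3, 24 h mouse 2 or 72 h mouse 1 and was lost without each of the other 6 (adjusted p 0.0646 to 0.101). That of Ear6 was lost without each of the 9.

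**Figure D3:**
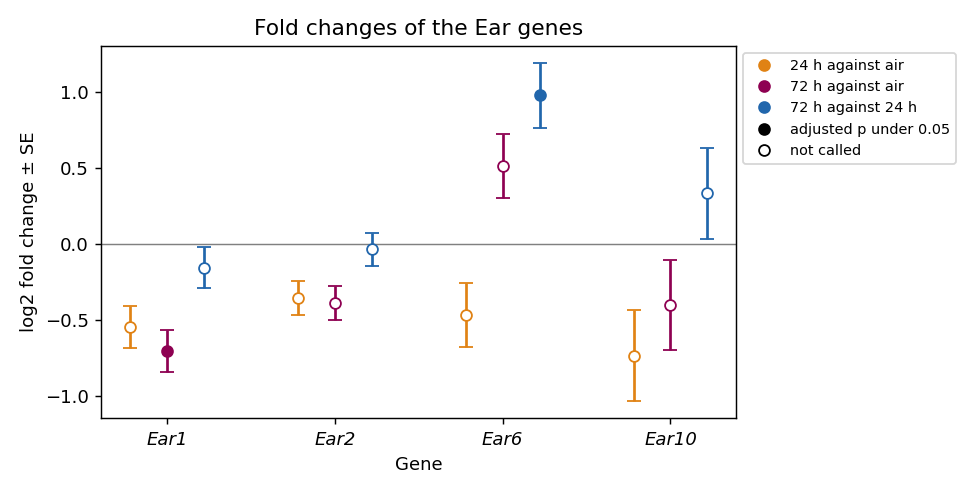
Points give the edgeR log2 fold change (y axis) of each Ear gene (x axis) in each of the 3 contrasts between groups, with bars of ± 1 SE; filled points had an adjusted p under 0.05. The filled points are Ear1 at 72 h against air (-0.70) and Ear6 at 72 h against 24 h (0.98).

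Because reads of the copies can be exchanged, the 4 rows were also summed, a quantity that depends less on how reads were divided among them. The sum was 2636, 2824 and 2513 CPM in the air mice, 2108, 1874 and 2049 CPM in the 24 h mice, and 1610, 2079 and 2103 CPM in the 72 h mice. It made up 0.251% to 0.277% of all counts in air, 0.191% to 0.207% at 24 h and 0.164% to 0.211% at 72 h. All ozone libraries lay below all air libraries. As a description with no test, the fitted log2 difference was -0.40 at 24 h against air, -0.46 at 72 h against air and -0.06 at 72 h against 24 h. Without the 2 libraries that carried other markers these differences were -0.35, -0.32 and 0.03. Ear1 and Ear2 together supplied nearly all of the sum, and Ear6 0.175% to 0.507% of it.

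The ratio of Ear1 to Ear2 counts was lowest at 72 h. Per 100 counts of Ear2, Ear1 had 37.5, 38.7 and 32.2 in the air mice, 31.2, 31.9 and 32.0 in the 24 h mice, and 28.01, 29.4 and 29.8 in the 72 h mice. The 3 groups did not overlap in any pair, and each pair gave an exact two-sided permutation p of 0.1, the smallest that 3 against 3 mice allow. Ear6 per 1000 counts of Ear2 was 3.50, 3.09 and 2.33 in the air mice, 2.65, 2.34 and 3.25 in the 24 h mice, and 6.53, 6.05 and 4.33 in the 72 h mice. The 72 h ratios stood above all others (exact permutation p = 0.1 against air and against 24 h), and the air and 24 h ratios overlapped (exact permutation p = 0.8). Ratios of Ear1 to Ear2 are measured within a library and rest on the division of shared reads.

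**Figure D4:**
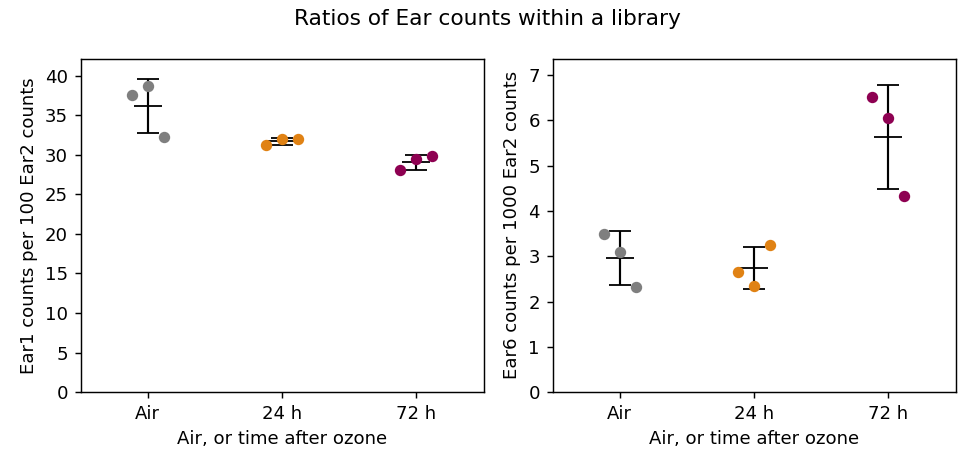
The left panel plots Ear1 counts per 100 Ear2 counts and the right panel Ear6 counts per 1000 Ear2 counts (y axes, from 0) for the air, 24 h and 72 h groups (x axis); points are mice and black bars the mean ± SD (n = 3). The left ratio is lowest at 72 h (28.01 to 29.8) and the right ratio highest at 72 h (4.33 to 6.53).

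Eosinophil markers were looked at because the Ear genes are named for that cell. None of 8 passed the filter on low counts. Epx, the eosinophil peroxidase, had 0 or 1 counts in every library, and Prg3, a granule major basic protein, likewise. Prg2, the other granule major basic protein, had 0 to 13 counts, and the chemokine receptor gene Ccr3 0 to 18. The 8 genes summed to 0.0788 to 0.882 CPM in 7 libraries. The sums of 11.7 CPM in the second 24 h library and 8.44 CPM in the first 72 h library came mostly from Il5ra, the interleukin-5 receptor alpha chain, with 531 and 407 counts. The 10 mast cell and basophil markers summed to 31.6 and 15.2 CPM in those 2 libraries, against 0.118 to 0.601 CPM in the others.

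The rest of the RNase A superfamily was represented by 18 of 25 listed genes in the table, of which 6 were tested. Their summed level was 174 to 184 CPM in air, 121.6 to 131 CPM at 24 h and 125 to 159 CPM at 72 h. None was called against air at either time by edgeR, while DESeq2 called Rnase4 (adjusted p = 0.0179) and Rnase6 (0.0449) lower at 24 h and Rnase2b (0.0374) higher at 72 h. Over all genes given an adjusted p, DESeq2 called 1.48% lower at 24 h and 631 of 16961 higher at 72 h. The median log2 fold change of the 6 was -0.48 at 24 h, -0.2 at 72 h and 0.23 at 72 h against 24 h. Rnase4, a secreted ribonuclease that shares its locus with angiogenin, averaged 66.5 ± 6.72 CPM at 24 h and 94.3 ± 4.76 CPM in air (-0.50, adjusted p = 0.163). Rnase6, known in humans for activity against bacteria, averaged 46.6 ± 8.85 CPM at 24 h and 63.6 ± 7.82 CPM in air (-0.45, adjusted p = 0.226). Ang, the angiogenin gene, averaged 8.70 ± 0.948 CPM at 24 h and 11.1 ± 1.048 CPM in air (-0.36, adjusted p = 0.370).

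Rnase2b, another eosinophil-type ribonuclease gene, was the only one of the 6 that edgeR called, higher at 72 h against 24 h, where 5.39% of all genes were. It had 2.87, 3.44 and 2.94 CPM in the 72 h mice, against 2.00, 1.98 and 1.64 CPM in the 24 h mice, and was higher at 72 h by 0.72 ± 0.17 on the log2 scale (adjusted p = 0.0263, edgeR). Against air the 72 h change was 0.60 (adjusted p = 0.0775). The 72 h against 24 h call held without any single air library or 24 h mouse 2. It was lost without 24 h mouse 1 or 3 or any single 72 h mouse (adjusted p 0.0511 to 0.118), and with no filter (0.70, adjusted p = 0.0743). It held without the 2 libraries that carried other markers (0.83, adjusted p = 0.0403). Its 9 deposited values lay within 0.01 of whole numbers, and it had few 31-base words in common with Ear6 (20 of 943). Rnase2a counts ranged from 11 to 1260, with the highest in air mouse 3, and no contrast was called. The pseudogene Ear-ps2, also among the 6, had 7.09 to 21.3 counts and a log2 fold change of 0.85 at 72 h against 24 h that missed the threshold (adjusted p = 0.0812).

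Genes outside the superfamily were also looked at. Rnh1, the cytosolic inhibitor that binds RNase A type enzymes, averaged 489.7 ± 34.6 CPM at 72 h and 557.8 ± 5.02 CPM in air (-0.19, adjusted p = 0.185). Rnaset2a and Rnaset2b, copies encoding lysosomal T2 ribonucleases, were not called in any contrast.

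The resident alveolar macrophage markers gave 3 called lower of 20 at 72 h against air, where 3.77% of all genes were called lower. Fabp1, a fatty acid binding protein gene, averaged 90.4 ± 8.62 CPM at 72 h and 177 ± 33.1 CPM in air (-0.97, adjusted p = 0.0167). Krt79, a keratin gene, averaged 351 ± 40.3 CPM at 72 h and 572 ± 42.1 CPM in air (-0.70, adjusted p = 0.0277). Marco, a scavenger receptor gene, averaged 347 ± 28.5 CPM at 72 h and 478 ± 55.9 CPM in air (-0.46, adjusted p = 0.0365). The median of the 20 was -0.18 at 72 h against air and -0.27 at 24 h against air, and edgeR called none at 24 h. DESeq2 called Krt79 lower at 24 h (-0.59, adjusted p = 0.00125), where it called 1.48% of genes lower. Of these markers, DESeq2 was read only for named genes with an unadjusted p under 0.05 by edgeR, so it gives no count over the 20. At 72 h against 24 h, Fabp1 was called lower (-0.66, adjusted p = 0.0139), where 12.8% of genes were. Ctsk, encoding cathepsin K, was called higher (0.40, adjusted p = 0.0475), where 5.39% of genes were. The 72 h call against air of each of Fabp1, Krt79 and Marco held without 24 h mouse 2. That of Fabp1 also held without air mouse 1 or 24 h mouse 1, and that of Marco without air mouse 1; without each other single library they were lost (adjusted p up to 0.116 for Fabp1, 0.127 for Krt79 and 0.145 for Marco). Fabp1 against 24 h was lost without 24 h mouse 1 or 72 h mouse 2 (adjusted p = 0.0652 and 0.0668), and Ctsk without every single library other than 72 h mouse 1 (up to 0.207). All of these calls held without the 2 libraries that carried other markers. That of Marco was lost with upper quartile scaling (adjusted p = 0.0613), no filter (0.0550) and a filter of 1 CPM (0.0510), and that of Ctsk with no filter (0.103) and with only the 6 libraries compared (0.0855).

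Of the lists for other cells, 3 had a called member. Cxcr2, a chemokine receptor gene on the neutrophil list, averaged 13.9 ± 1.81 CPM at 72 h and 5.84 ± 0.426 CPM in air (1.25, adjusted p = 0.00421), where 1.71% of genes were called higher. Ace, encoding angiotensin-converting enzyme and on the monocyte list, averaged 63.7 ± 3.79 CPM at 72 h and 42.5 ± 5.13 CPM in air (0.58, adjusted p = 0.0226). Only 1 of 7 tested neutrophil markers and 1 of 8 tested monocyte markers was called at 72 h against air. In the 24 h mice Cxcr2 had 8.81, 9.18 and 7.88 CPM, while the 10 neutrophil markers summed to 28.3, 128 and 29.05 CPM. Cd22, a B cell lectin gene, was higher at 72 h than at 24 h by 0.30 (adjusted p = 0.0393), where 5.39% of genes were called higher. It was the 1 called of 8 tested B cell markers, whose median log2 fold change in that contrast was -0.61, in the other direction. Cd22 had 158, 180.7 and 155 CPM in the 24 h mice, where the 8 markers summed to 168, 1560 and 159 CPM, so it did not follow the list. The Cxcr2 call held without each single library (adjusted p at most 0.0499). The Ace call held without air mouse 1 or 24 h mouse 2 and was lost without each of the others (adjusted p up to 0.122). The Cd22 call held without air mouse 3 or 24 h mouse 2 and was lost without each of the others (adjusted p up to 0.105), with no filter (0.0719) and with only the 6 libraries compared (0.0727). The T cell, erythroid, serous cavity macrophage, and mast cell and basophil lists had no called member, though single libraries carried their markers. The T cell markers summed to 651.7 CPM in the second 24 h library and 62.0 CPM in the first 72 h library. In the other libraries they summed to 2.27 to 10.2 CPM. The neutrophil markers summed to 128 and 99.0 CPM in the same 2 libraries, against 19.6 to 31.2 CPM in the others. The monocyte markers summed to 411 and 351 CPM there, against 176 to 243 CPM in the others.

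The pattern of each member over the 9 libraries was set beside that of every tested protein-coding gene averaging at least 5 CPM, by Pearson correlation of log2 CPM, as a description. Ear1 and Ear2 followed each other (r = 0.967) and had r of 0.712 and 0.796 with Ear10, while Ear6 had r of -0.103 with Ear1 and -0.031 with Ear2. Nearest to Ear2 was Mgst1, a microsomal glutathione S-transferase gene (r = 0.992), followed by Tex261, Dctn2, Nagk and Cib2 (0.984 to 0.979). Nearest to Ear1 were Fam89a (0.989), Arpc5 (0.983), a subunit of the actin-nucleating Arp2/3 complex, Lmo4 (0.979), Mgst1 (0.970) and Hmox1 (0.968), the heme oxygenase gene. Mgst1 had 143, 185 and 186 CPM in the 72 h mice, against 239, 263 and 246 CPM in the air mice (-0.54, adjusted p = 0.0319, edgeR). Mgst1 was picked for its likeness to Ear2 over these same libraries, so this difference is not separate evidence.

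Nearest to Ear6 were Fyco1, Nsd1, Man2a1, Amn1 and Zbtb37 (r = 0.982 to 0.980), and nearest to Ear10 Prkra (0.948), Cldn12, Nek7, Pi4k2b and Nipsnap2 (0.916 to 0.908). Man2a1, a Golgi mannosidase gene, had 207, 213 and 200.4 CPM in the 72 h mice, against 168, 162 and 174 CPM in the 24 h mice (0.30, adjusted p = 0.0245, edgeR). It was likewise picked for its likeness to Ear6 over the same libraries, so this difference is not separate evidence. Without the 2 libraries that carried other markers, 2 of the 5 nearest genes of Ear1 (Fam89a and Arpc5), 1 of Ear2 (Mgst1), 1 of Ear6 (Man2a1) and 2 of Ear10 (Prkra and Pi4k2b) were still among the nearest 5. The points of these correlations share their library and its depth.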

How the data were processed

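Per the submitters' processing notes, reads were handled with Trimmomatic 0.39, FastQC, Salmon and DESeq2 on GRCm38.p6; no source used here gives the annotation release or the strand setting. The authors deposited 1 table of estimated counts per gene, not normalized, for 9 libraries of 47095543 to 60248305 counts. Of 54281 identifiers, 54107 matched GENCODE M21, 53544 with their version. The 4 Ear rows and all gene lists were chosen with earlier results of these data known.

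Counts were rounded, filtered with filterByExpr, scaled by TMM and fitted over all 9 libraries with edgeR 4.0.16 (robust quasi-likelihood, R 4.3.3), with Benjamini-Hochberg adjustment over 15713 genes and a threshold of 0.05. The common biological coefficient of variation was 0.312. CPM used TMM-scaled library sizes; correlations used log2 CPM with a prior count of 2. Words of 31 bases and alignments were computed with Python 3.11 and Biopython 1.88, and exact tests with SciPy 1.17.1. The code was tested on simulated data. Replicates of a group differed by more than sampling noise (chi-square per degree of freedom 7.41 to 142). Named were all 4 members, the tested ribonuclease genes, up to 4 called members of each list and the 5 nearest genes to each member. A result for 1 listed gene is not reported here. Alternatives were other scalings and filters, DESeq2 1.42.0, limma 3.58.1 voom, a replicate block, the 6 libraries compared only, leaving out abundant genes, the 2 libraries with other markers, and single libraries. Labels number the samples; that they are separate mice is taken from those labels, and p-values measure the spread between these samples.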

Additional observations from a re-analysis of the deposited data

Results flagged for a closer look

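Ear6 at 24 h and at 72 h lay on opposite sides of its air mean of 5.79 CPM. All 3 mice at 72 h (6.99 to 9.68 CPM) were above that mean and all 3 at 24 h (3.32 to 5.04 CPM) below it. The difference between the times was tested directly, at 0.98 on the log2 scale for 72 h against 24 h (adjusted p = 0.0180, edgeR's quasi-likelihood test). That call was lost without 24 h mouse 1, without 72 h mouse 2 and with the replicate block. Against air, neither 72 h (adjusted p = 0.173) nor 24 h (adjusted p = 0.347) was called by the same test, and the 24 h and air mice overlapped.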

How the results depend on the processing

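Members called at 24 h against air numbered 0, and 2 with DESeq2. At 72 h against air the 1 call became 0 with upper quartile scaling (Ear1 -0.65, adjusted p = 0.0534), 2 with DESeq2, and 0 to 1 with single libraries left out. At 72 h against 24 h the 1 call became 0 to 1 with single libraries left out. The joint test's 2 calls became 3 with DESeq2, 1 with no filter and 0 to 1 with single libraries left out. Ear2 at 72 h against 24 h, near 0 throughout, changed sign to 0.0256 with upper quartile scaling, 0.0048 with a filter of 1 CPM, 0.0494 without the 2 libraries that carried other markers, 0.0190 without 24 h mouse 1 and 0.0763 without 72 h mouse 1, within a range of -0.1033 to 0.0763 with single libraries left out. Ear10 at 72 h against 24 h changed sign to -0.0653 without 72 h mouse 3, within a range of -0.0653 to 0.531. The cause was not tested. Over all genes, calls at 72 h against air numbered 860, against 1889 with DESeq2, 506 with its size factors, 299 with upper quartile scaling, 459 with a 1 CPM filter, 270 with no filter and 7 to 1625 with single libraries left out. At 72 h against 24 h they numbered 2855, 1696 with no filter and 340 to 2499 with single libraries left out. In the joint test they numbered 2081, 3554 with DESeq2, 1167 with no filter and 15 to 2232 with single libraries left out. At 24 h they numbered 1, 582 with DESeq2, 7 without the 2 libraries and 0 to 2 with single libraries left out. Same-numbered samples correlated at -0.613 to 0.475 and differently numbered samples at -0.609 to 0.731. These values rest on deviations from means of 3 libraries, so they cannot settle whether the numbers pair the mice. With the replicate block, members called were 0 in each of the 4 tests (Ear1 at 72 h -0.70, adjusted p = 0.0899, and Ear6 at 72 h against 24 h 0.96, adjusted p = 0.0530). The calls of Fabp1 (adjusted p = 0.0764), Krt79 (0.0867), Marco (0.105) and Ace (0.0764) at 72 h against air were lost with that block. So were those of Ctsk (0.0911) and Cd22 (0.0650) at 72 h against 24 h. Calls over all genes with the block were 35 at 72 h against air, 1474 at 72 h against 24 h and 106 in the joint test. Depth limits Ear10, at 19.6 to 46.8 counts, more than the other members.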
